A study of Homo sapiens with 4 samples.

Results

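The IL6 family of cytokines and its STAT3 pathway were followed here through 10 genes, chosen by symbol and matched by Ensembl identifier in the deposited tables, out of 58735 genes in all. The 10 genes were the ligands IL6, IL11 and LIF, the receptor chains IL6R, LIFR, OSMR and IL6ST, the kinase JAK1, the transcription factor STAT3 and the inhibitor SOCS3. All 10 passed the filter of at least 10 reads in 1 or more libraries, as did 19895 genes in all. RNA was sequenced from MHCC-97H, an established metastatic hepatocellular carcinoma (HCC) cell line, after 24 h with PBS or with 2 µg of migrasomes (Migs), the large vesicles that migrating cells leave behind. The Migs had been collected from donor cells of the same line kept in normoxia (normo-Migs) or in hypoxia (hypo-Migs), or from hypoxic cells in which CD147 had been knocked out (CD147KO-Migs). The recipient cells were wild type in all 4 libraries and carried batch number 1, so the knockout lay in the donor cells and could not be checked in these data. There was 1 library per condition, so no difference below has a replicate check, each test compares 2 libraries and not 2 treatments, and intervals cover counting error only.

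Cytokines of the IL6 family bind a ligand-specific receptor chain and signal through the shared chain gp130, encoded by IL6ST, alone or together with LIFR or OSMR. Receptor-bound JAK kinases then phosphorylate STAT3, which enters the nucleus and switches on target genes. One of these targets is SOCS3, whose product binds gp130 and JAKs and shuts the signal off, and in liver cells the pathway drives the acute phase proteins. Phosphorylation of STAT3 is not seen by RNA sequencing, which measures transcripts only.

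Reads on genes numbered 33882496 to 40285223 per library, which puts the level that a count of 0 still allows, 3 reads, at 0.0745 to 0.0885 reads per 1000000 reads on genes (CPM). The library labelled PBS stood apart from the other 3. It held 251 genes with at most 3 reads that had at least 100 reads in each Mig library, IL6 among them, whereas no other library had such a gene. Reads from the mitochondrial genome made up 2.69% of reads on genes with PBS and 5.00% to 5.16% with Migs. Of the liver markers, ALB, AFP, APOB and TTR had 0 reads in all 4 libraries and HNF4A had 134 to 246. Of 4 epithelial markers, the keratin gene KRT8 had 105571 reads with PBS and 129218 to 167573 with Migs. KRT18 had 36742 reads with PBS and 59588 to 79098 with Migs, and EPCAM had 578 and 1451 to 1834. CDH1 had 0 reads with PBS and 112 to 123 with Migs. The summed level of these 4 genes was 4217 CPM with PBS and 5508 to 6615 CPM with Migs. The summed level of 10 liver markers was 7.06 to 9.51 CPM in the 4 libraries. Of 5 fibroblast markers, 1 or fewer was at 0 in a library, and their summed level was 23.7 CPM with PBS and 156 to 165 CPM with Migs, with COL1A1, PDGFRB and DCN higher, COL3A1 at 27 reads with PBS and 14 to 27 with Migs, and COL1A2 at 0 to 2 reads. The summed level of 5 endothelial markers was 3.48 CPM with PBS and 4.28 to 5.54 CPM with Migs, and that of 5 leukocyte markers was 0.649 and 2.69 to 4.05 CPM, with PTPRC at 0 to 2 reads. The part of these differences in the results against PBS was not tested, and with 1 library per condition the treatment and the library cannot be told apart.

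The upstream sequences of IL6, IL11, LIFR and SOCS3 are shown because these genes were higher with all 3 Migs against PBS. RefSeq start sites on GRCh38.p14 were found for 9 of the 10 genes, LIF being the one without an entry, and the 250 bases before each start were searched on both strands for the core motifs of STAT factors (TTCNNNGAA), NF-kB (GGGA, any base, then TTTCC), C/EBP (TTGCNNAA) and AP-1 (TGANTCA), where N is any base. Capitals mark the matches. The IL6 stretch is chr7:22726950-22727146 on the plus strand, the part of the window without annotated exon. The IL11 window is chr19:55370464-55370713, the LIFR window chr5:38595406-38595655 and the SOCS3 window chr17:78360926-78361175, all on the minus strand. LIFR and SOCS3 have more than 1 start site, and the window without annotated exon is shown for each.
IL6: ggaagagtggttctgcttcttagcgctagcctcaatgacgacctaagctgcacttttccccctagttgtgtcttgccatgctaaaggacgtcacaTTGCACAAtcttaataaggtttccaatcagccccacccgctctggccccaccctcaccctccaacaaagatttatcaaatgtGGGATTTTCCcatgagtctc
IL11: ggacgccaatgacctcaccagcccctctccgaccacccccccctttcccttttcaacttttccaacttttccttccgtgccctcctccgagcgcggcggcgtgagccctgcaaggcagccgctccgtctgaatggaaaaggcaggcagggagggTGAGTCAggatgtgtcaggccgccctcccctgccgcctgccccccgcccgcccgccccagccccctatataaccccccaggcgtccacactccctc
LIFR: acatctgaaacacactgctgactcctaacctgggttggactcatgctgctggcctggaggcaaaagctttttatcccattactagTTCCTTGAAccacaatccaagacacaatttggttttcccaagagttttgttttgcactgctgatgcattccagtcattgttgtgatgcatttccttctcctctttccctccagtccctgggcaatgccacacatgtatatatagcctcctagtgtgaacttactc
SOCS3: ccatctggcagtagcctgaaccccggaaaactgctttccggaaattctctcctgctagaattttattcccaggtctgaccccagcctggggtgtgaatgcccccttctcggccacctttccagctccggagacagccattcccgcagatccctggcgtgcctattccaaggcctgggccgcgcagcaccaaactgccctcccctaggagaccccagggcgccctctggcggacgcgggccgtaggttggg

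The IL6 window held a C/EBP match 155 to 148 bases before the start and an NF-kB match 73 to 64 bases before it. The IL11 window held an AP-1 match 96 to 90 bases before the start, and this LIFR window, the farthest upstream of 3, held a STAT match 165 to 157 bases before it. A second LIFR window held a STAT and a C/EBP match, and the OSMR window a C/EBP match. In the windows of SOCS3, STAT3, JAK1, IL6R and IL6ST these letters were not found. The 2 SOCS3 windows, chr17:78360926-78361175 and chr17:78359668-78359917, leave out the bases just before the upstream end of the deposited gene, 78360077. That stretch was not searched, so the absence of a STAT match covers these windows only. The LIFR windows, the IL6 window and the SOCS3 window chr17:78359668-78359917 lie inside the genes as drawn by the deposited coordinates. The OSMR, IL6R, IL6ST and STAT3 windows lie partly inside their genes, and the OSMR match falls in the part inside. Of 34943 RefSeq windows of this length, 6.56% held the STAT motif, 0.527% the NF-kB motif, 9.06% the C/EBP motif and 6.59% the AP-1 motif. A match describes the letters and is not evidence that a factor bound there.

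To ask what Migs change in recipient cells, each Mig library was compared with the library labelled PBS. A gene was counted as changed when its adjusted p was at most 0.05 and its log2 fold change was at least 1 in either direction. With normo-Migs 4 of the 10 genes were higher by these criteria, where 16.5% of all genes tested were, and 0 were lower, against 10.7% of all genes. With hypo-Migs the counts were 4 higher and 0 lower, beside 17.4% and 10.9% of all genes. With CD147KO-Migs they were again 4 and 0, beside 16.6% and 10.9%. The 4 genes were IL6, IL11, LIFR and SOCS3 in each comparison, and the 3 comparisons share the PBS library. IL6, with 0 reads with PBS, passed the filter only through Mig libraries. The median log2 fold change over the 10 genes was 0.19, 0.29 and 0.36 with normo-Migs, hypo-Migs and CD147KO-Migs, beside 0.03, 0.04 and 0.03 over all genes tested.

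**Figure D1:**
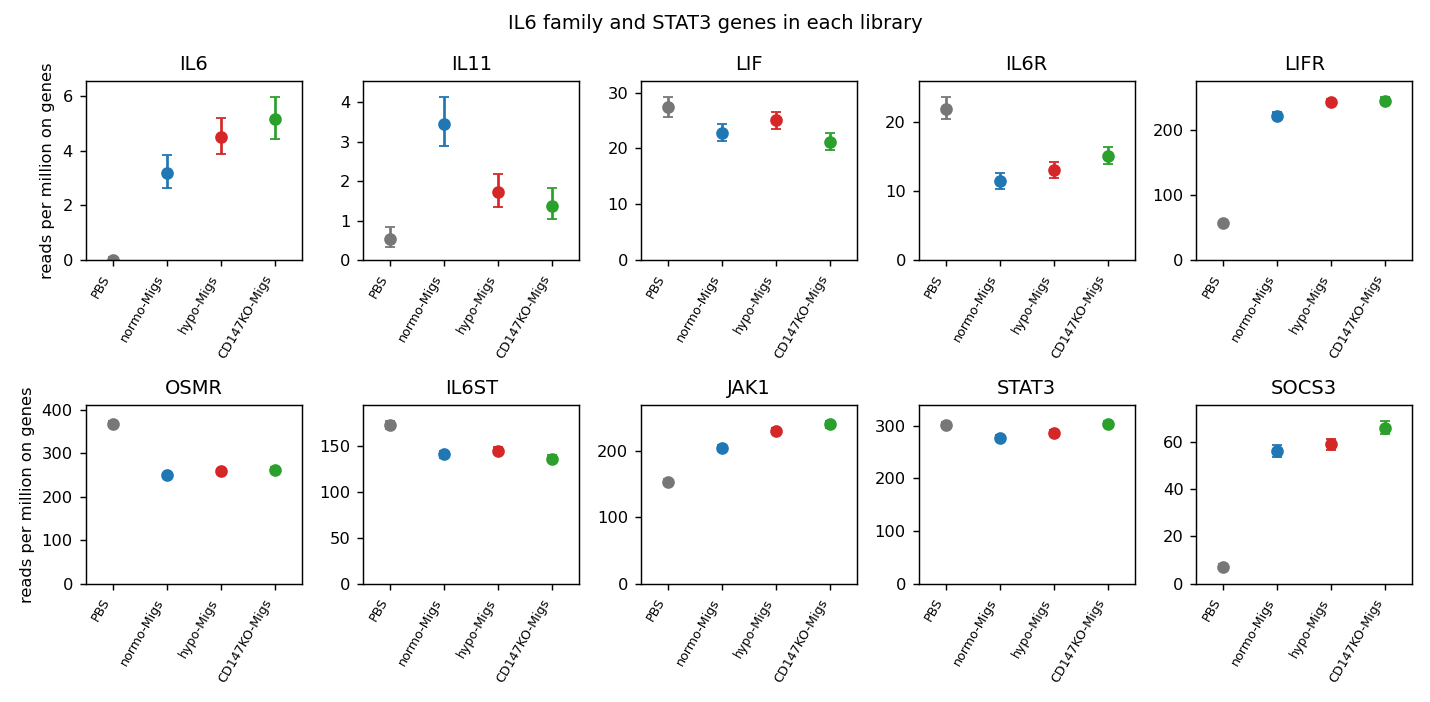
Level of each gene in each library, in CPM, with a separate vertical axis from 0 for each gene. Points are single libraries and bars are 95% Wilson intervals, which cover counting error only. IL6, IL11, LIFR and SOCS3 were lowest in the PBS library, whereas OSMR and IL6R were highest there.

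IL6 (ENSG00000136244, chr7:22725884-22732002), the founding cytokine of the family, had 0 reads with PBS and 110, 181 and 180 in the normo-, hypo- and CD147KO-Mig libraries. These counts are 0, 3.18, 4.49 and 5.14 CPM. IL6 was therefore detected in each Mig library and not detectable with PBS at this depth. Taking 3 reads as the limit of the PBS library, IL6 was at least 37.1-fold higher with normo-Migs, at least 51.9-fold higher with hypo-Migs and at least 59.1-fold higher with CD147KO-Migs. STEAP1B on the minus strand overlaps IL6 over 1730 bases and had 0, 270, 276 and 273 reads in the same order of libraries. The antisense gene AC073072.1 also overlaps IL6 and had 0, 12, 15 and 5 reads. How strands were handled in counting is not given in the sources used here, so reads from the shared stretch cannot be assigned to one gene.

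IL11 (ENSG00000095752, chr19:55364389-55370463), a cytokine that signals through IL11RA and gp130, had 18 reads with PBS and 119, 69 and 48 in the normo-, hypo- and CD147KO-Mig libraries. It rose most with normo-Migs, with a log2 fold change of 2.62 (95% interval 2.02 to 3.55). The log2 fold change was 1.62 (0.96 to 2.56) with hypo-Migs and 1.31 (0.59 to 2.26) with CD147KO-Migs. IL11 was the least abundant of the 10 genes per length in every Mig library. Its intervals against PBS were wide, as the PBS library held 18 reads.

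LIF (ENSG00000128342, chr22:30240447-30246851), the ligand of LIFR, was at 27.3 CPM with PBS and 22.8, 25.0 and 21.1 in the normo-, hypo- and CD147KO-Mig libraries. It met the fold criterion in no comparison, and its log2 fold changes against PBS lay between -0.34 and -0.10. With hypo-Migs the interval of -0.23 to 0.03 included 0. LIF was the most abundant of the 3 ligands per length in every library, at 5.27 to 6.75 FPKM (fragments scaled by gene length and library size), whereas IL6 and IL11 did not exceed 2.46 and 1.30 FPKM.

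LIFR (ENSG00000113594, chr5:38474963-38608354), the signalling receptor chain for LIF, was at 57.4 CPM with PBS and 222, 243 and 245 in the normo-, hypo- and CD147KO-Mig libraries. The PBS library was the low one and the 3 Mig libraries lay close together. The log2 fold change was 2.00 (1.93 to 2.07) with normo-Migs, 2.11 (2.04 to 2.18) with hypo-Migs, and 2.12 (2.05 to 2.19) for CD147KO-Migs. LIFR-AS1, which overlaps LIFR on the other strand, had 13 to 58 reads, against 1945 to 9781 for LIFR.

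OSMR (ENSG00000145623, chr5:38845858-38945596), the receptor chain that pairs with gp130 for oncostatin M and lies on the same chromosome as LIFR, went the other way in level, with 368 CPM with PBS and 250, 259 and 262 in the normo-, hypo- and CD147KO-Mig libraries. Its log2 fold changes of -0.51, -0.47 and -0.46 did not reach the fold criterion. The PBS library was the high one by more than counting error, as the interval with hypo-Migs ran from -0.51 to -0.43. RICTOR on the minus strand shares 7678 bases with OSMR and had 2878 reads with PBS and 3734 to 4660 with Migs.

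IL6R (ENSG00000160712, chr1:154405193-154469450), the chain that binds IL6 itself, had 745 reads with PBS and 396, 524 and 530 in the normo-, hypo- and CD147KO-Mig libraries. This was the largest difference below PBS among the 10 genes, but it stayed short of the fold criterion in each comparison. The log2 fold change was -0.89 (-1.07 to -0.72) with normo-Migs, -0.72 (-0.89 to -0.56) with hypo-Migs, and -0.51 (-0.68 to -0.35) for CD147KO-Migs. IL6 and the receptor chain that binds it thus stood on opposite sides of PBS in these libraries.

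IL6ST (ENSG00000134352, chr5:55935095-55994993), which encodes gp130, was at 173 CPM with PBS and 141, 145 and 136 in the normo-, hypo- and CD147KO-Mig libraries. Its log2 fold changes were -0.25, -0.22 and -0.32, all within the fold criterion. The processed pseudogene IL6STP1 had 0 or 1 read per library and IL6RP1 had 0 reads.

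JAK1 (ENSG00000162434, chr1:64833229-64966504), the kinase bound to gp130, was at 153 CPM with PBS and 204, 230 and 240 in the normo-, hypo- and CD147KO-Mig libraries. The log2 fold changes of 0.47 (0.41 to 0.52), 0.62 (0.57 to 0.67) and 0.68 (0.63 to 0.73) were beyond counting error and short of the fold criterion.

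STAT3 (ENSG00000168610, chr17:42313324-42388568) varied least of the 10 genes over the 4 libraries, at 302 CPM with PBS and 277, 286 and 303 in the normo-, hypo- and CD147KO-Mig libraries. Its log2 fold change against PBS was -0.08 (-0.12 to -0.04) with normo-Migs, -0.04 (-0.08 to -0.01) with hypo-Migs, and 0.03 (-0.01 to 0.07) for CD147KO-Migs. The whole range of STAT3 over the 4 libraries was 0.11 on the log2 scale. Among the genes most like STAT3, by the distance between log2 CPM centred over the 4 libraries among 11059 protein-coding genes with at least 50 reads in each, were GTPBP2 (distance 0.0145) and NOP53 (0.0182), which varied as little. With 4 libraries such a ranking is a description only.

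SOCS3 (ENSG00000184557, chr17:78356778-78360077), the feedback inhibitor, was at 7.26 CPM with PBS and 56.0, 58.9 and 66.0 in the normo-, hypo- and CD147KO-Mig libraries. Among the genes detected in all 4 libraries, it had the largest rise of the 10 against PBS. The log2 fold change was 2.98 (2.80 to 3.19) with normo-Migs, 3.04 (2.86 to 3.25) with hypo-Migs, and 3.20 (3.02 to 3.41) for CD147KO-Migs. In bulk RNA a gene carried by more cells and a gene with more RNA per cell cannot be told apart.

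**Figure D2:**
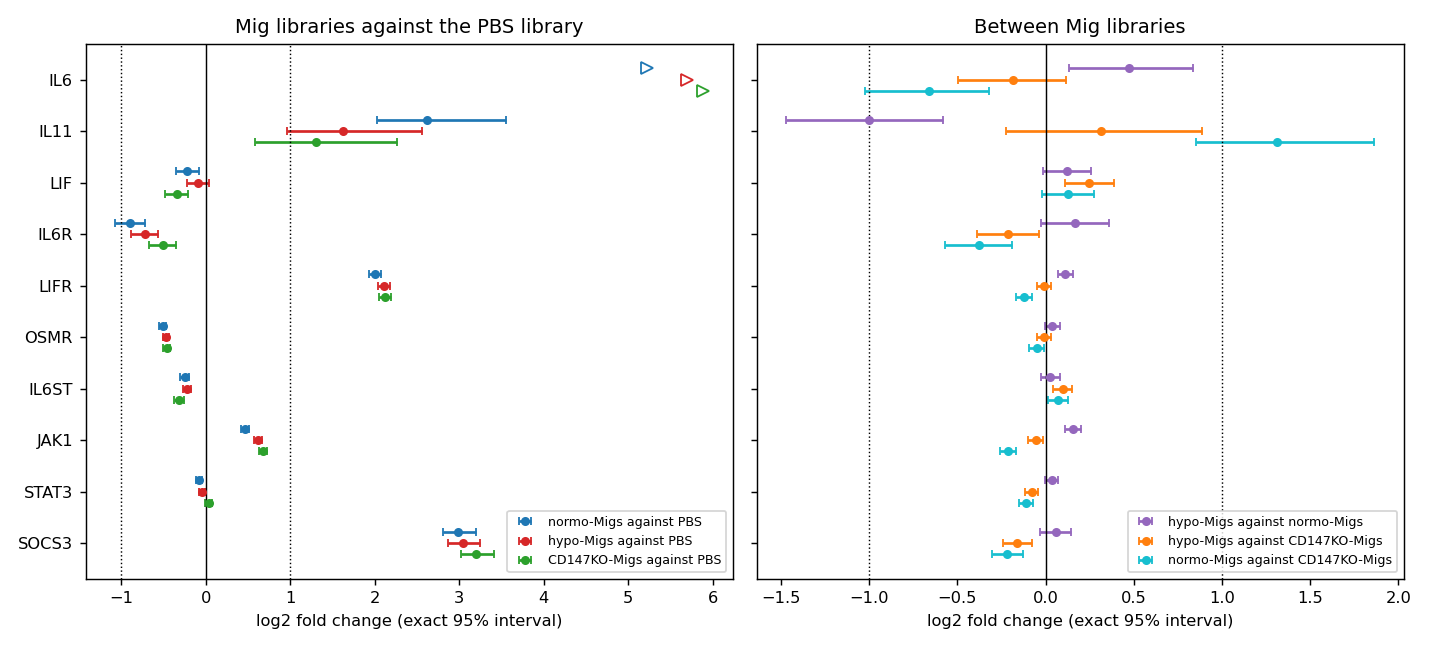
Log2 fold change of each gene for each Mig library against the PBS library (left) and between Mig libraries (right), with exact 95% intervals. Open triangles give the bound for IL6 with its 0 reads with PBS set to 3, and are not interval ends. Dotted lines mark log2 fold changes of -1 and 1. SOCS3, LIFR and IL11 lay beyond 1 with all 3 Migs, as did the bounds for IL6, and between Mig libraries IL11 was the one gene with a point beyond a line.

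The effect of hypoxia in the donor cells was asked by comparing hypo-Migs with normo-Migs. None of the 10 genes passed the criteria, where 4.90% of all genes tested did. IL11 came nearest, with 119 reads with normo-Migs and 69 with hypo-Migs. Its log2 fold change of -0.9995 (-1.47 to -0.58, adjusted p = 4.82e-05) fell just short of the fold criterion, and it passed with another scaling or prior count, at -1.0003 and -1.02. IL6 was higher with hypo-Migs by 0.48 on the log2 scale (0.13 to 0.84, adjusted p = 0.0273), less than the criterion asks. JAK1 and LIFR differed by 0.16 (0.11 to 0.20) and 0.11 (0.07 to 0.16). The intervals of STAT3 (-0.01 to 0.07), SOCS3 (-0.03 to 0.15) and IL6ST (-0.03 to 0.08) included 0. The median over the 10 genes was 0.085, beside 0 over all genes tested.

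The part of CD147 in the donor cells was asked by comparing hypo-Migs with CD147KO-Migs, and again 0 of the 10 genes passed, where 5.04% of all genes tested did. Read numbers for IL6 were almost equal, at 181 and 180, and its log2 fold change was -0.19 (-0.49 to 0.12). STAT3 was slightly lower with hypo-Migs than with CD147KO-Migs, at 286 against 303 CPM. Its log2 fold change was -0.08 (-0.12 to -0.04). SOCS3 was at 58.9 CPM with hypo-Migs and 66.0 with CD147KO-Migs, a log2 fold change of -0.16 (-0.24 to -0.08, adjusted p = 0.00166). LIF was the gene with the clearest difference the other way, at 0.25 (0.11 to 0.39, adjusted p = 0.00325). The interval of IL11, 69 against 48 reads, ran from -0.23 to 0.89 and included 0. LIFR and OSMR differed by -0.01 each, with intervals of -0.05 to 0.03.

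Between normo-Migs and CD147KO-Migs, which differ in both the oxygen and the CD147 of the donor cells, 1 of the 10 genes passed, where 4.91% of all genes tested did. That gene was IL11, higher with normo-Migs by 1.31 on the log2 scale (0.85 to 1.86, adjusted p = 3.2e-07) on 119 and 48 reads. IL6 went the other way, at -0.66 (-1.03 to -0.32, adjusted p = 0.0011), and IL6R was at -0.38 (-0.57 to -0.19). The Mig libraries thus ordered IL11 and IL6 in opposite ways, IL11 being highest and IL6 lowest with normo-Migs. JAK1 and STAT3 were also lower with normo-Migs than with CD147KO-Migs, at -0.21 (-0.26 to -0.17) and -0.11 (-0.15 to -0.07). SOCS3 and LIFR were lower too, at -0.22 and -0.12, whereas LIF and IL6ST were at 0.13 and 0.07. Over the 3 Mig libraries the range was 1.31 for IL11 and 0.66 for IL6 on the log2 scale, and between 0.05 and 0.38 for the other 8 genes.

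Per length, the authors' FPKM placed OSMR first with PBS, at 50.2, followed by STAT3 at 33.6, JAK1 at 23.7 and IL6ST at 18.2. With hypo-Migs JAK1 (36.2 FPKM), OSMR (36.0) and STAT3 (32.3) were nearly level, and SOCS3 (21.4) and LIFR (20.4) had moved above IL6ST (15.5). The same 6 genes headed the list with normo-Migs and with CD147KO-Migs, SOCS3 in place 4 and LIFR in place 5 each time. With PBS SOCS3 had been in place 8, at 2.60 FPKM, and LIFR in place 6, at 4.74. With 1 library per condition there is no spread to separate neighbours in that order, such as JAK1 and OSMR with hypo-Migs.

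**Figure D3:**
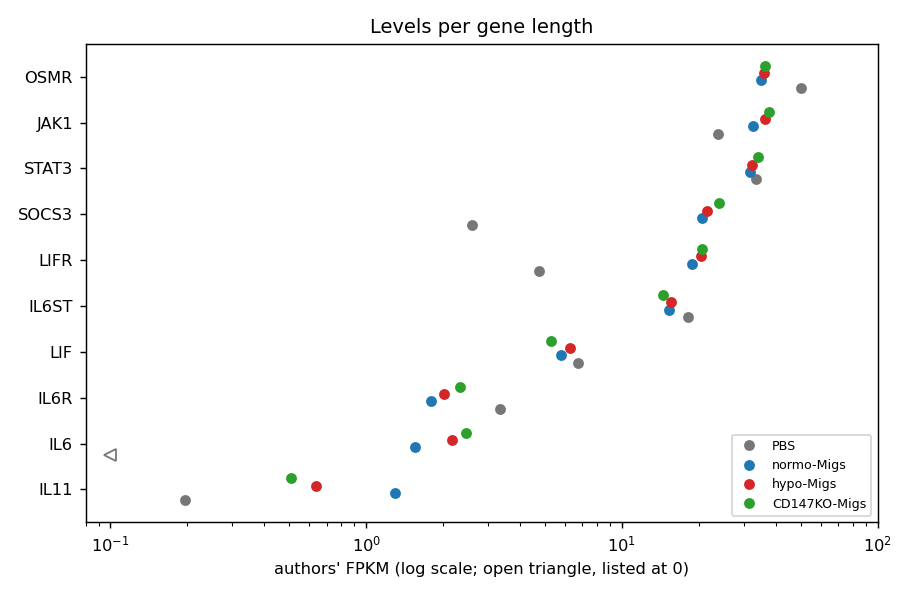
Levels of the 10 genes per gene length in each library, in the authors' FPKM on a log scale, ordered by the highest library. Each point is 1 library and the open triangle marks IL6 listed at 0 with PBS. SOCS3 and LIFR joined the group of abundant genes with Migs, where IL6, IL11 and IL6R were the least abundant. With PBS the least abundant were IL6, IL11 and SOCS3.

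The wider pathway was described from 96 further genes in 7 lists, 80 of which passed the filter. That filter can be met through Mig libraries alone, as by CNTFR and S1PR1, each at 0 reads with PBS. Against PBS, 22 were higher and 10 lower with normo-Migs, 24 higher and 9 lower with hypo-Migs, and 23 higher and 8 lower with CD147KO-Migs. Over all genes tested, 16.5% were higher and 10.7% lower with normo-Migs, 17.4% and 10.9% with hypo-Migs, and 16.6% and 10.9% with CD147KO-Migs, so the numbers of lower list genes were near the share over all genes. Their median log2 fold change with hypo-Migs was 0.56, or 0.47 with the genes at 0 reads in PBS set to their bounds, beside 0.04 over all genes tested. Between Mig libraries 1 list gene passed for hypo-Migs against normo-Migs, 4 for hypo-Migs against CD147KO-Migs and 0 for normo-Migs against CD147KO-Migs. Over all genes tested 4.90%, 5.04% and 4.91% passed, so these counts were at or below the share over all genes.

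Of 8 other ligands, 5 were tested with hypo-Migs against PBS and 2 fell, where 10.9% of all genes did. CTF1, which encodes cardiotrophin-1, and EBI3, a subunit of IL27 and IL35, fell by 1.65 and 1.28 on the log2 scale on 74 to 85 reads with PBS, and are named after their values were seen. OSM, the ligand of OSMR, had 0 reads in all 4 libraries. Of 4 other receptor genes, 3 were tested and 1 rose, where 17.4% of all genes did. This was CNTFR, from 0 reads with PBS to 289 with hypo-Migs, at least 82.8-fold higher. IL11RA, the receptor of IL11, had 36 reads with PBS and 71 to 75 with Migs, with log2 fold changes of 1.04, 0.73 and 0.94 for normo-Migs, hypo-Migs and CD147KO-Migs, on either side of the criterion.

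Of 9 other JAK and STAT genes, 3 rose and 1 fell with hypo-Migs, where 17.4% of all genes rose and 10.9% fell. JAK3 rose from 83 reads with PBS to 338 (log2 fold change 1.78) and JAK2 from 240 to 670 (1.26). STAT4 rose from 4 to 62 reads, and is named after its values were seen. STAT5A fell from 2951 reads to 1471, by 1.22 on the log2 scale. Of 6 adaptor genes, SOS1, an exchange factor that links receptors to RAS, had log2 fold changes of 0.94, 1.04 (0.96 to 1.11) and 0.98 for the normo-, hypo- and CD147KO-Mig libraries, all close to the criterion. It was the 1 adaptor gene called with hypo-Migs, where 17.4% of all genes were called higher.

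Of 15 other inhibitors tested of 16, 3 rose and 2 fell with hypo-Migs, near the 17.4% and 10.9% of all genes. CISH, a SOCS family member best known as a target of STAT5, rose from 14 reads with PBS to 159 (3.12), and SOCS2 from 107 to 340 (1.43). SOCS6, with 976 and 2274 reads, lay at the criterion, at 1.00 (0.89 to 1.11). The phosphatase genes PTPN6 and PTPRD fell, from 1151 to 426 reads (fell by 1.65 on the log2 scale) and from 320 to 32 (fell by 3.45). PTPRD was also higher with hypo-Migs than with CD147KO-Migs, on 32 and 10 reads (1.32, adjusted p = 0.017). SOCS1 had 26 reads with PBS and 8 to 23 with Migs.

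All 29 STAT3 target genes on the list were tested, and with hypo-Migs 8 rose and 2 fell, where 17.4% of all genes rose and 10.9% fell. With normo-Migs 7 rose and 3 fell, and with CD147KO-Migs 9 rose and 1 fell. MMP2, a gelatinase, rose most, from 6 reads with PBS to 3515 with hypo-Migs (8.58, interval 7.85 to 10.42). S1PR1, a receptor for sphingosine-1-phosphate, had 0 and 206 reads, at least 59.1-fold higher. TWIST1, a transcription factor of epithelial-mesenchymal transition, rose from 61 to 510 reads (2.81), and BATF3 from 26 to 127 (1.99). VEGFA, the main angiogenic growth factor, fell by 1.09 and the kinase gene PIM3 by 1.02. The long-known targets MYC and MCL1 had 10383 and 12506 reads with PBS and did not pass in any comparison. The median of the list was 0.62 with hypo-Migs, beside 0.04 over all genes tested. None of the 29 passed between Mig libraries.

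Of 24 acute phase genes, 13 were tested, and 7 were higher and 2 lower than PBS with hypo-Migs, where 17.4% of all genes were higher and 10.9% lower. Among the higher genes, FGA, FGB, FGL1, LBP and FGG had 0, 0, 0, 3 and 6 reads with PBS. These genes passed the filter only through Mig libraries, so the count of higher genes leans on genes tested because they were high with Migs. FGL1 is named after its values were seen. The lower genes were SERPINA1 and LRG1, with 25 and 37 reads with PBS and 9 and 16 with hypo-Migs, and they are named after their values were seen. The fibrinogen chain genes had the largest differences. FGB had 0 reads with PBS and 827 with hypo-Migs (at least 237-fold higher), FGA 0 and 493 (at least 141-fold higher), and FGG 6 and 322 (log2 fold change 5.14). CP, which encodes ceruloplasmin, rose from 63 to 996 reads (3.72). SAA1, a serum amyloid gene, had 20 reads with PBS and 241, 171 and 307 in the normo-, hypo- and CD147KO-Mig libraries, and it was lower with hypo-Migs than with CD147KO-Migs (-1.03, adjusted p = 1.49e-12). SAA1 shares sequence with SAA2, so how reads were split between them is uncertain. LBP, at 21 reads with hypo-Migs and 2 with each other Mig, and A2M, at 30 and 10 reads for hypo-Migs and CD147KO-Migs, were the other genes that passed between Mig libraries, and are named after their values were seen. CRP, HAMP, ORM1 and SERPINA3 had 0 reads in all 4 libraries, while C3 had 20296 to 27396.

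**Figure D4:**
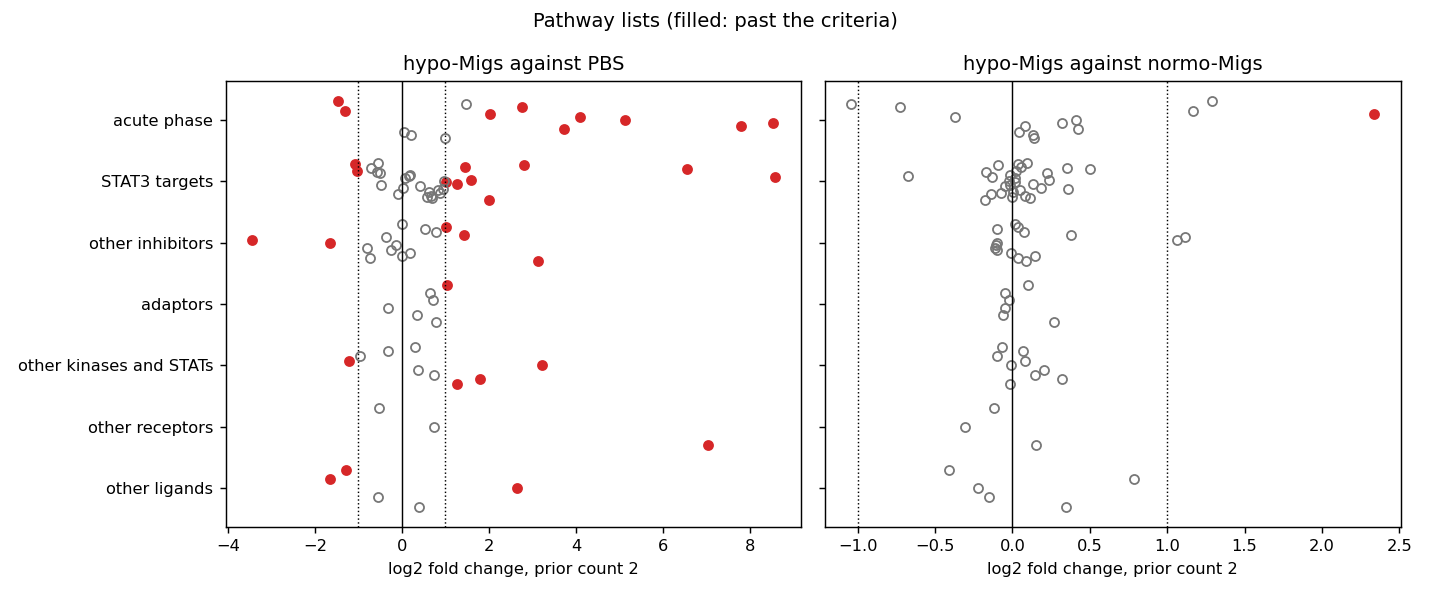
Log2 fold changes of the tested genes of the 7 pathway lists for hypo-Migs against PBS (left) and against normo-Migs (right), with a prior count of 2, so that values of genes with 0 reads with PBS are not bounds. Filled points passed both criteria and dotted lines mark -1 and 1. Many list genes lay beyond the lines against PBS, and 1 passed between the Mig libraries.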

How the data were processed

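RNA from MHCC-97H cells was sequenced by the authors in 4 libraries, 1 per condition, grouped by the treatment in the labels. A SMARTer mRNA kit is named in the labels, whereas the supplementary methods describe poly-T beads and random hexamers. The submitters' processing notes name CASAVA 1.8, fastp, HISAT2 2.0.5, featureCounts 1.5.0-p3 and hg38. The authors deposited raw counts of reads per gene and an FPKM table, scaled by gene length and library size, for 58735 genes with coordinates of GENCODE 29.

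Genes that reached 10 reads in any library were tested in each pair with edgeR 4.0.16 (R 4.3.3), using TMM factors, a prior count of 2, the two-sided exact binomial test with Benjamini-Hochberg adjustment over all genes tested, and Clopper-Pearson 95% intervals. Single libraries have Wilson intervals. TMM factors came from the genes that passed the filter. An earlier fit took them from all genes, and the change was made after values of the 10 genes had been seen. The tests were checked on simulated data that held counting error only, with changes placed in genes with ample reads. That check does not cover the spread between cultures or changes at low counts. Figures used Python 3.11.15 and matplotlib 3.10.9.

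The 10 genes and all lists were chosen with earlier results of these data known. Named were the 10 genes, up to 4 list genes per direction past the criteria with a mean of at least 50 reads in hypo-Migs against PBS, all such genes between Mig libraries, overlapping genes and pseudogenes, and the 3 genes nearest to STAT3. The rule also asked for those nearest to IL6, which are not given because its value at 0 reads with PBS is set by the prior count. Some genes this rule selects are not reported here. Alternatives were other scaling, filters and prior counts, log2(FPKM + 1), assumed coefficients of variation (CV) of 0.1 and 0.4, DESeq2 1.42.0 over the 4 libraries, a CV estimated from the 3 Mig libraries, and the PBS library left out.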

Additional observations from a re-analysis of the deposited data

How the results depend on the processing

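With 1 library per condition the spread between cultures is unknown. No paired analysis was possible because each condition had 1 library. The DESeq2 fit took the 4 libraries as replicates of each other to set the spread, so differences between conditions were counted as spread. Its counts of 0 below therefore cannot decide whether a call holds. Over all settings no log2 fold change of the 10 genes changed sign. For hypo-Migs against normo-Migs, 1 of the 10 genes (IL11) passed in place of 0 with DESeq2 size factors or a prior count of 0.25. IL11 for normo-Migs against CD147KO-Migs was lost, 1 becoming 0, with log2(FPKM + 1), an assumed CV of 0.4 or DESeq2 over the 4 libraries. Against PBS, 2 of the 4 genes (IL6 and SOCS3) passed with a CV of 0.4 and 0 with DESeq2, for each Mig, and with log2(FPKM + 1) IL11 fell below the fold criterion in all 3 comparisons. List genes numbered 0 in place of 1 for hypo-Migs against normo-Migs with 10 reads in every library, log2(FPKM + 1), a CV of 0.4 or DESeq2. For hypo-Migs against CD147KO-Migs they numbered 2 in place of 4 with a CV of 0.1 or the CV of the 3 Mig libraries, 0.0747, and 0 with log2(FPKM + 1), a CV of 0.4 or DESeq2. Against PBS they numbered 21 in place of 32 for normo-Migs with 10 reads in every library, 15 for each Mig with log2(FPKM + 1), 14, 14 and 13 for normo-Migs, hypo-Migs and CD147KO-Migs with a CV of 0.4, and 0 with DESeq2. Over all genes, the 975, 1003 and 977 calls for hypo-Migs against normo-Migs, hypo-Migs against CD147KO-Migs and normo-Migs against CD147KO-Migs became 234, 216 and 240 with 10 reads in every library, 56, 80 and 66 with log2(FPKM + 1), 259, 228 and 281 with a CV of 0.1, 333, 332 and 347 with the CV of the Mig libraries, 0, 1 and 2 with a CV of 0.4, and 0 with DESeq2. The 5415, 5636 and 5463 calls of normo-Migs, hypo-Migs and CD147KO-Migs against PBS became 2684, 2744 and 2753, 1619, 1674 and 1658, and 1535, 1633 and 1575 with 10 reads in every library, log2(FPKM + 1) and a CV of 0.4, and 0 with DESeq2. A filter of 10 reads in every library leaves IL6 untested. TMM over all genes, added after seeing the data, left every call of the 10 genes as it was. The cause of these shifts was not tested.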
